A study of Homo sapiens with 3 samples.

Results

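The profile described here is that of control cells of the human cell line QBC-939. Their labels call them CCA cells of genotype WT with the treatment oe-NC, where CCA stands for cholangiocarcinoma, a cancer of the bile ducts. The origin of the line was not tested here. The control cells make up 1 of the 3 libraries of the series. The other libraries come from cells of the same line overexpressing miR-182-5p or miR-183-5p and are not compared here. The control cells are not untouched cells, since the labels give NC itself as overexpressed, and what the NC construct or oligonucleotide is was not stated. Total RNA was extracted for sequencing. Each gene has a raw count and an FPKM, the number of fragments scaled by exon length and library size, so that levels of different genes can be compared per length. The NC library held 64516706 counts. The genes described are the 16079 protein-coding genes encoded in the nucleus, of 30923 genes in the table, and they were ranked by FPKM. The table holds only genes with counts in at least 1 of the 3 libraries. Genes without reads in all of them have no row, so every share below is a share of genes with a row. With 1 library there is no replicate, no p-value and no spread between cultures, and the 95% intervals in parentheses after an FPKM cover counting error only (exact Poisson).

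Bile duct epithelial cells, or cholangiocytes, arise from the same embryonic progenitors as hepatocytes and share with the pancreas and gut an origin in the endoderm. They are simple epithelial cells that carry keratins 7, 8, 18 and 19, are patterned by transcription factors such as SOX9, and modify bile by moving chloride, bicarbonate and water. Tumours of the bile ducts often carry gut or stomach markers besides biliary ones, which is why markers of several endodermal tissues were measured side by side.

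Of the 16079 genes, 10512 (65.4%) had an FPKM of at least 1 and are called detected below. At least 10 FPKM was reached by 3495 (21.7%), at least 100 FPKM by 200 (1.24%), and 1174 (7.3%) had 0 counts. The median gene stood at 2.89 FPKM and 1185 counts. The 10 highest genes held 6.14% of the summed FPKM of these genes, the 50 highest 14.9% and the 500 highest 42.0%. The 13 mitochondrially encoded protein genes, left out of the ranking, took 12.3% of all counts, and genes with no coding product took 3.92%. A gene with 100 counts has a counting interval that reaches 21.6% above its value, and a gene with 10000 counts reaches 1.98% above it, so differences of a few percent among high genes are resolved in counts but carry no information on how cultures vary.

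The highest nuclear gene was TMSB10, a small protein that binds actin monomers, at 2969 FPKM, followed by the elongation factor EEF1A1 at 1060 FPKM. The ferritin chains FTH1 and FTL, which store iron, stood at 1001 and 749 FPKM. Rank 4 went to LYZ, the secreted enzyme lysozyme that cleaves bacterial cell walls, at 771 FPKM (766 to 775). The glycolytic enzyme GAPDH (710 FPKM), the chaperone HSP90AB1 (682 FPKM) and the calcium-binding proteins S100A6 (620 FPKM) and S100A10 (585 FPKM) came next. Ribosomal proteins gave 7 of the 30 highest genes, among them RPL41 (589 FPKM), RPS12 (486 FPKM), RPL13A (478 FPKM), RPS2 (466 FPKM), RPS18 (426 FPKM) and RPL19 (331 FPKM). The cytoskeleton was represented by ACTG1 (509 FPKM), ACTB (413 FPKM) and PFN1 (440 FPKM), and the endoplasmic reticulum chaperones by HSPA5 (440 FPKM), CALR (416 FPKM) and HSP90B1 (338 FPKM). The redox proteins PRDX1 (474 FPKM) and TXN (365 FPKM), the chromatin proteins HMGA1 (380 FPKM) and PTMA (380 FPKM) were also among the 30. Against this common machinery, the genes among the 30 tied to certain epithelia were KRT18 at rank 11, KRT8 at rank 21, the tight junction protein CLDN2 at rank 26 and the glutathione peroxidase GPX2 at rank 28. LYZ, at rank 4, is also counted among the immune markers below. With the length of the median coding transcript in place of all exons, the ranks were 3 for LYZ, 15 for KRT18, 6 for KRT8, 106 for CLDN2 and 74 for GPX2.

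**Figure D1:**
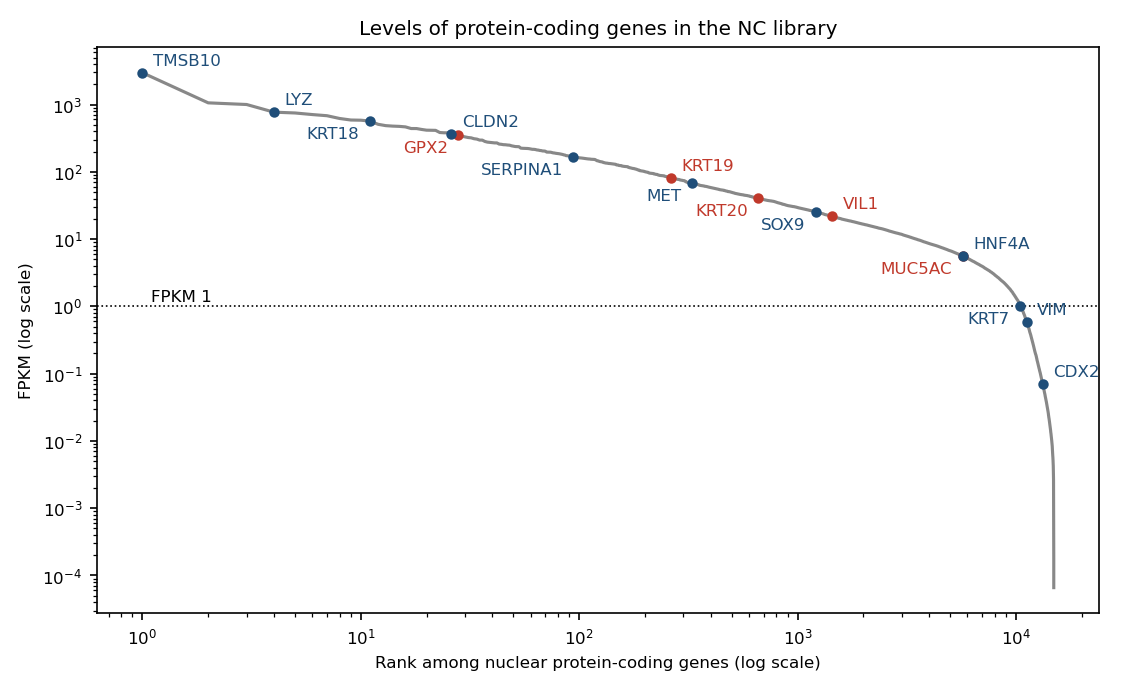
FPKM of nuclear protein-coding genes in the NC library against their rank, both on log scales; red points are KRT19, KRT20, VIL1, MUC5AC and GPX2, blue points other named genes, and the dotted line is an FPKM of 1. TMSB10 lies alone at the top at 2969 FPKM, GPX2 and CLDN2 lie side by side at ranks 28 and 26, and the curve drops steeply beyond KRT7, which sits at the line with 1.03 FPKM.

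KRT19, KRT20, VIL1, MUC5AC and GPX2 had been named as markers of these cells, and each was detected, as were 65.4% of all protein-coding genes. Members were chosen with earlier results of these data known, so their detection is a description and no test of identity. GPX2, an antioxidant enzyme of gastrointestinal epithelium, had 41573 counts and 358 FPKM (354 to 361). KRT19, a keratin of bile ducts and other simple epithelia, had 14779 counts and 81.6 FPKM (80.3 to 82.9), at rank 262. KRT20, a keratin of intestinal and gastric surface cells, had 6018 counts and 40.6 FPKM (39.6 to 41.6), at rank 661. VIL1, which bundles actin in microvilli, had 11586 counts and 21.7 FPKM (21.3 to 22.1), at rank 1445. MUC5AC, the secreted mucin of the gastric surface, had 7562 counts but only 5.59 FPKM (5.47 to 5.72), since its transcript is long, and stood at rank 5712. On the per-length scale no neighbouring pair of the 5 had overlapping counting intervals. In the table GPX2 (ENSG00000176153) lies on chromosome 14 from 64939152 to 64942905, KRT19 (ENSG00000171345) on chromosome 17 from 41523617 to 41528308, KRT20 (ENSG00000171431) on chromosome 17 from 40875889 to 40885242, VIL1 (ENSG00000127831) on chromosome 2 from 218419121 to 218453295 and MUC5AC (ENSG00000215182) on chromosome 11 from 1157953 to 1201138. GENCODE 29 on GRCh38 places these genes at the same or nearly the same ends.

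To show the sequence at which such marker genes start, the promoters of GPX2, of CLDN2 (the highest of the listed junction genes) and of CDX2 (an intestinal factor near zero here) are printed from 150 bases before to 20 bases after the annotated start site (RefSeq, GRCh38.p14, 5′ to 3′ on the gene's strand). Promoters of the same table were matched by symbol for 12460 of the 16079 genes (77.5%). Capitals mark matches, on both strands, to GGGCGG (the GC box), TGTTTAC (a forkhead motif) and TGACNNNGC (the core bound by NRF2), searched over the 250 bases before the start, and to TATAAA on the gene's strand alone between 40 and 20 bases before it.
GPX2 promoter, chr14:64942726-64942895, strand minus: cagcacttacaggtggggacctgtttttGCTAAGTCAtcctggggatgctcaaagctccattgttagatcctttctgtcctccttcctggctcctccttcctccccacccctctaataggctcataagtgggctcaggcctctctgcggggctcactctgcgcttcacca
CLDN2 promoter, chrX:106900014-106900183, strand plus: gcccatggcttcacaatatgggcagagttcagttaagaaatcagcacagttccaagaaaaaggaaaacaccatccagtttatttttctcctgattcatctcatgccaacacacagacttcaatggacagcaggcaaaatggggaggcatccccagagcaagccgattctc
CDX2 promoter, chr13:27969296-27969465, strand minus: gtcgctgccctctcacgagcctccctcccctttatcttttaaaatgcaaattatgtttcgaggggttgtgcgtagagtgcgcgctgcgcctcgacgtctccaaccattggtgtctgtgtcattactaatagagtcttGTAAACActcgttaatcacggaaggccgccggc
The GPX2 promoter holds the NRF2 core on the reverse strand, beginning 122 bases before the start site, and 11.6% of all matched promoters hold this motif. In the CDX2 promoter a forkhead motif on the reverse strand begins 13 bases before the start, against 2.09% of promoters that hold it. None of the searched letters occur in the printed CLDN2 stretch. The GC box was found in 62.4% and TATAAA in 2.61% of the matched promoters. These are matches of letters only.

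Of 20 biliary markers, all in the table, 16 were detected (80.0%, against 65.4% of all protein-coding genes), with a median of 7.89 FPKM against 2.89. The keratin pair KRT18 and KRT8 stood at 569 and 414 FPKM, the adhesion molecule EPCAM at 171 FPKM, and the claudin CLDN4 at 53.8 FPKM. SLC4A2, which exchanges chloride for bicarbonate, was at 46.2 FPKM and the duct factor SOX9 at 25.4 FPKM. ANXA4 (10.8 FPKM), the secreted matrix protein SPP1 (8.34 FPKM), the chloride channel CFTR (7.44 FPKM) and the enzyme GGT1 (6.11 FPKM) were lower. KRT7, the keratin that usually accompanies KRT19 in bile ducts, was just at the threshold, with 322 counts and 1.03 FPKM (0.917 to 1.14), an interval that spans the detection threshold; with the length of its median coding transcript in place of all its exons, its level was 3.86. KRT19 stood 79.5-fold above KRT7 on the deposited scale and 35.5-fold above it when both were set on the median length of their coding transcripts. The mucin MUC1 was at 2.16 FPKM and the water channel AQP1 at 2.11 FPKM. The bile acid receptor GPBAR1 (0.125 FPKM), the cilium protein PKHD1 (0.0500 FPKM) and the bile acid importer SLC10A2 (0.0196 FPKM) were under 1 FPKM, and the secretin receptor SCTR had 0 counts.

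Markers of the intestine split into a present and an absent group. Of 28 intestinal markers 21 were in the table and 10 were detected (47.6%, under the background of 65.4%). Besides GPX2, KRT20 and VIL1, the high ones were the lectins LGALS4 at 110 FPKM and REG4 at 27.9 FPKM. CEACAM5 was at 8.38 FPKM, the stem cell factor ASCL2 at 7.95 FPKM, CEACAM6 at 4.22 FPKM, the trefoil peptide TFF3 at 3.08 FPKM and the stem cell receptor LGR5 at 2.25 FPKM. The factor HNF4G was under the threshold (0.867 FPKM). CDX2, the factor that sets intestinal identity, had 19 counts and 0.0694 FPKM (0.0418 to 0.108), MUC2, the goblet cell mucin, had 11 counts, and the fatty acid binder FABP1 had 13. The intestinal cadherin CDH17, the antigen GPA33, the chloride exchanger SLC26A3 and the peptide GUCA2A had 0 counts, which for CDH17 allows up to 0.00991 FPKM (3 counts).

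Of 15 gastric markers 12 were in the table and 4 were detected (33.3%, under the background of 65.4%). They were ANXA10, an annexin of gastric mucosa, at 66.6 FPKM, the protease CTSE at 8.37 FPKM, MUC5AC, and the junction protein VSIG1 at 3.71 FPKM. The gastric peptides TFF1 and TFF2 stood at 0.253 and 0.193 FPKM, on 10 and 11 counts, the claudin CLDN18 at 0.203 FPKM, the gland mucin MUC6 at 0.0356 FPKM, and the factor SOX2 had 0 counts.

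Hepatocyte markers were detected in 3 of the 20 in the table (26 listed), or 15.0%, under the background of 65.4%. They were the protease inhibitor SERPINA1 at 169 FPKM (168 to 170), rank 94, and the factors HNF4A at 5.58 FPKM (25.6 on its coding transcript length) and CEBPA at 3.37 FPKM. Albumin, ALB, had 5 counts, the thyroxine carrier TTR 28, and the lipoprotein APOA1 and the bile acid enzyme CYP7A1 had 0. Pancreatic markers were detected in 2 of the 7 in the table (14 listed), or 28.6%, also under the background of 65.4%. The trypsinogen PRSS1 was at 15.1 FPKM and the factor PDX1 at 1.04 FPKM (0.906 to 1.19), whereas the islet hormone GCG had 0 counts. A second trypsinogen, PRSS2, was at 69.1 FPKM; the trypsinogens are near-identical and can share reads.

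Markers of the remaining tissue lists were detected in few cases, in each list under the 65.4% of all protein-coding genes. Of 14 squamous markers 2 were detected, SPRR1B at 8.21 FPKM and KRT10 at 7.48 FPKM, while the basal cell factor TP63 had 4 counts and KRT5 had 22. Of 5 lung markers 1 was detected, FOXJ1, the regulator of motile cilia, at 10.1 FPKM, and the lung factor NKX2-1 was at 0.576 FPKM. Of 9 urogenital and breast markers HOXB13 was detected, at 1.48 FPKM. Of 9 neural and neuroendocrine markers the tubulin TUBB3 at 11.4 FPKM and the enolase ENO2 at 8.54 FPKM were detected, while the granule protein CHGA had 14 counts. Of 14 mesenchymal markers 2 were detected, fibronectin FN1 at 22.8 FPKM and the repressor SNAI1 at 3.01 FPKM. VIM, the filament of mesenchymal cells, was at 0.588 FPKM (0.516 to 0.667), COL1A1 at 0.952 FPKM, and the repressor ZEB1 at 0.0374 FPKM. Of 11 immune markers 3 were detected: LYZ, CD68 at 1.47 FPKM and the integrin ITGAM at 1.24 FPKM. The pan-leukocyte gene PTPRC and the macrophage receptor CSF1R had 0 counts and CD14 had 37. No endothelial marker of 6 in the table was detected, the highest being CLDN5 at 0.124 FPKM. Set against the label of CCA cells, the data hold genes of simple epithelia (KRT18, KRT8, EPCAM and CLDN4) and the factor SOX9, with little KRT7. Part of the gut and stomach markers stood beside them, and other markers of the gut and stomach lists were not detected. Of the biliary list, KRT7 was at the threshold and GPBAR1, PKHD1, SLC10A2 and SCTR were under it.

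**Figure D2:**
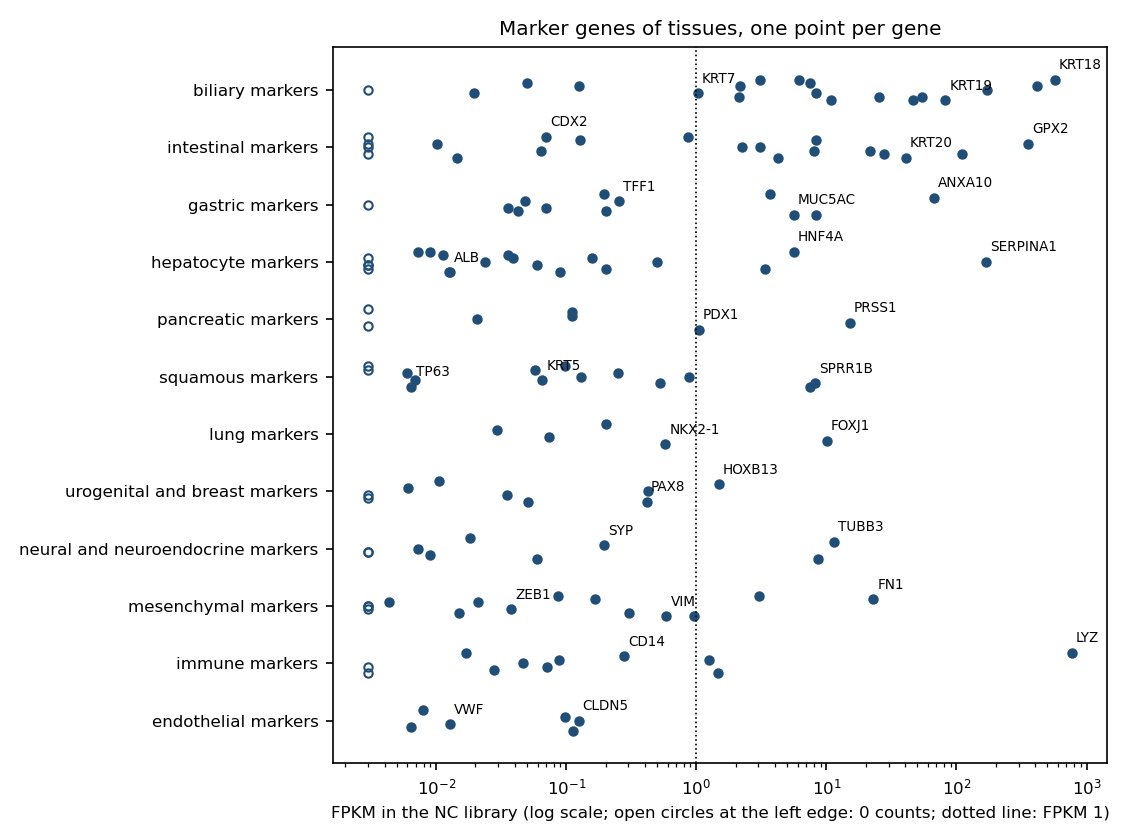
FPKM in the NC library (log scale) of marker genes of 12 tissues or cell types, 1 point per gene, with not every listed gene drawn; open circles at the left edge are genes with 0 counts and the dotted line is an FPKM of 1. Most biliary markers lie to the right of the line, intestinal markers fall on both sides, and in the other rows single genes such as SERPINA1, ANXA10 and LYZ stand far to the right of the rest.

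Among transcription factors, the 667 genes that the table annotates as RNA polymerase II-specific DNA-binding factors had a median of 1.94 FPKM, and 398 of them (59.7%) were detected. Those above 50 FPKM included the broad factors YBX1 (252 FPKM), the stress factor ATF4 (120 FPKM), the secretory cell factor XBP1 (120 FPKM), ETS2 (88.7 FPKM), JUN (52.7 FPKM) and the cell cycle factor MYBL2 (52.4 FPKM), and 2 factors tied to body axis or epithelium, HOXB9 (64.2 FPKM) and KLF5 (53.6 FPKM). MYC was at 44.9 FPKM. Of the 34 listed factors of liver and gut 30 were in the table and 20 were detected (66.7%, close to the background of 65.4%). After KLF5, the highest were SOX4 (30.6 FPKM), CEBPB (30.2 FPKM), SOX9, FOXA2 (18.1 FPKM), the Notch effector HES1 (12.8 FPKM) and the endoderm factor GATA6 (12.2 FPKM). KLF4 was at 9.97 FPKM, FOXA3 at 5.59 FPKM, MNX1 at 5.22 FPKM, ONECUT2 at 5.10 FPKM and FOXA1 at 4.57 FPKM. The nuclear receptor NR5A2 (1.69 FPKM) and the secretory lineage factor ATOH1 (1.05 FPKM, 0.903 to 1.21) were near the threshold. PROX1 (0.327 FPKM) and HHEX (0.0844 FPKM), which act early in liver development, were under it, and GATA5 had 0 counts.

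The members of factor families stood at unequal levels. HNF4A was 6.44-fold above HNF4G on the deposited scale and 18.2-fold above it on coding transcript lengths. FOXA2 was 3.96-fold above FOXA1. Of 5 GATA genes in the table only GATA6 was detected, a smaller share than the 65.4% of all protein-coding genes. The next, GATA2, was at 0.176 FPKM. Of 14 SOX genes 5 were detected (35.7%, under the background of 65.4%). These were SOX4, SOX9, SOX12 (13.1 FPKM), SOX13 (5.08 FPKM) and SOX15 (1.17 FPKM). Of 32 forkhead genes 17 were detected (53.1%, under the background of 65.4%). FOXQ1 was the highest of them, at 41.4 FPKM, ahead of the mitotic factor FOXM1 at 27.8 FPKM and of FOXA2.

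Factors that maintain epithelia were detected in 13 of 20 cases (65.0%, the background being 65.4%). KLF5 was followed by the ETS factor EHF at 39.1 FPKM, the splicing regulators ESRP1 at 19.8 FPKM and ESRP2 at 12.8 FPKM, and the goblet cell factor SPDEF at 17.8 FPKM. ELF3 was at 7.79 FPKM and the junction gene regulator GRHL2 at 6.79 FPKM. ELF5 had 0 counts, and the ectodermal factors TFAP2A and TFAP2C were at 0.498 and 0.0694 FPKM.

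HOX genes, which give cells their position along the body axis, were detected in 23 of 38 cases (60.5%, near the background of 65.4%), and their levels are given by cluster. Most detected HOX genes overlap another gene of the table on the same strand, and 7 detected ones do not. The higher the number of a HOX gene, the further to the tail its early expression lies, as background. In the HOXB cluster 9 of 10 genes were detected, with a median of 12.2 FPKM. Its values were 0 counts for HOXB1, then 1.98 FPKM for HOXB2, 10.5 for HOXB3, 8.12 for HOXB4, 19.1 for HOXB5, 45.5 for HOXB6, 25.9 for HOXB7, 13.8 for HOXB8, 64.2 for HOXB9 and 1.48 for HOXB13. In the HOXA cluster 8 of 11 were detected, with a median of 2.95 FPKM, and the highest were HOXA10 and HOXA11, both at 15.1 FPKM with overlapping counting intervals, then HOXA9 at 9.12 FPKM, the most tailward HOXA13 at 7.30 FPKM (7.03 to 7.57) and HOXA5 at 4.90 FPKM. HOXA2 (0.935 FPKM) and HOXA7 (0.720 FPKM) were under the threshold. In the HOXC cluster 6 of 9 were detected, none above the 4.68 FPKM of HOXC4, with HOXC6 at 4.42 FPKM and HOXC13 at 1.32 FPKM. In the HOXD cluster 0 of 8 were detected, and the highest was HOXD1 at 0.173 FPKM. HOXB9 overlaps HOXB7 on the same strand, and HOXB6, HOXA10, HOXA11 and HOXA13 overlap antisense transcripts.

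**Figure D3:**
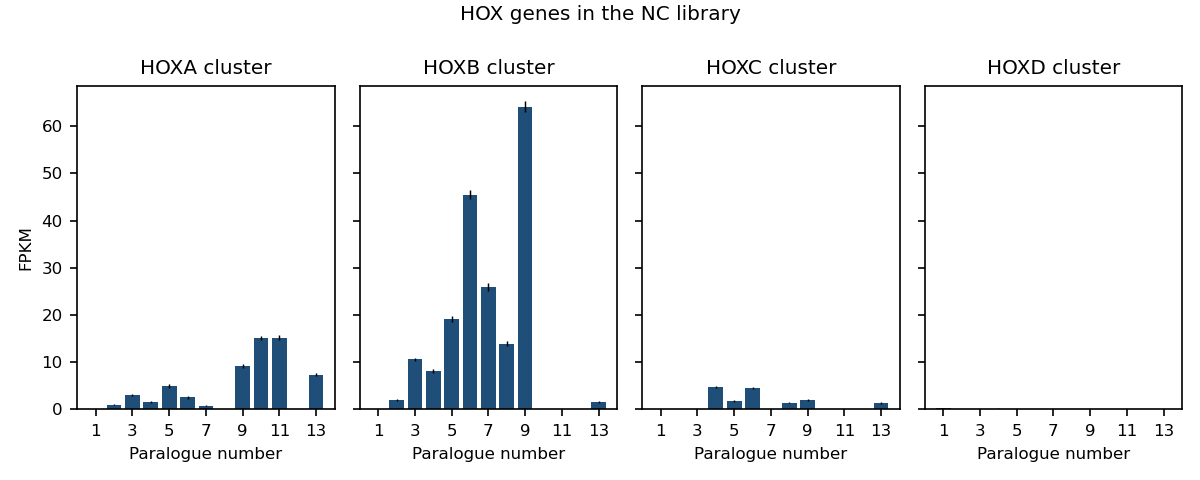
FPKM (linear scale) of HOX genes in the NC library by cluster and paralogue number; bars are the deposited values and lines the 95% counting intervals, and not every HOXA gene is drawn. HOXB genes reach 64.2 FPKM at HOXB9, HOXA genes reach 15.1 FPKM at HOXA10 and HOXA11, HOXC genes stay at or under 4.68 FPKM, and HOXD genes lie at the baseline.

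Nuclear receptors, transcription factors switched by hormones, lipids or vitamins, were detected in 25 of the 42 in the table (59.5%, near the background of 65.4%). The highest were the orphan receptor NR2F6 (30.5 FPKM), ESRRA (18.9 FPKM), RXRB (12.6 FPKM), the lipid-sensing PPARG (11.4 FPKM), THRA (10.1 FPKM) and PPARD (9.74 FPKM). NR0B2, a repressor of bile acid synthesis, was at 7.98 FPKM and the vitamin D receptor VDR at 7.53 FPKM. NR3C1, the glucocorticoid receptor, which most cell types carry, had 4 counts and 0.00556 FPKM (0.00151 to 0.0142). The estrogen receptor ESR1 and the xenobiotic sensor NR1I2 had 0 counts.

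Secreted proteins were led by LYZ and SERPINA1. Of 36 listed proteins of defence and luminal secretion 26 were in the table and 14 were detected (53.8%, under the background). Besides these, the galectin ligand LGALS3BP was at 148 FPKM, the mucin-folding protein AGR2 at 38.4 FPKM, complement factor CFB at 10.5 FPKM, the trypsin inhibitor SPINK1 at 8.96 FPKM and WFDC2 at 6.98 FPKM. The iron-binding LCN2 was at 3.68 FPKM. The protease inhibitor SLPI (0.220 FPKM), complement C3 (0.0607 FPKM) and the immunoglobulin transporter PIGR (0.0223 FPKM) were under the threshold, and DEFB1 had 0 counts. Of 12 mucins with a row, 5 were detected (41.7%, under the 65.4% of all protein-coding genes). The membrane mucin MUC13, at 56.1 FPKM, stood 10.0-fold above MUC5AC. MUC20 (3.78 FPKM), MUC1 and MUC3A (1.98 FPKM) followed, and MUC4 (0.208 FPKM), MUC5B (0.0191 FPKM) and MUC16 (0 counts) were not detected.

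Growth factors were detected in 24 of 50 cases (48.0%, under the background of 65.4%), yet 3 of them passed 100 FPKM. These were the EGF receptor ligand AREG at 131 FPKM (129 to 133), the bone morphogenetic protein BMP4 at 121 FPKM and GRN at 101 FPKM. The stress-induced GDF15 was at 95.6 FPKM, the Wnt antagonist DKK1 at 94.3 FPKM, and a second EGF receptor ligand, EREG, at 55.8 FPKM. IGF2 was at 31.5 FPKM, TGFB1 at 31.4 FPKM, VEGFA at 11.5 FPKM, TGFA at 11.2 FPKM and PDGFB at 10.6 FPKM. EGF itself was at 0.260 FPKM, 504-fold under AREG. Among ligands of short range, JAG2 (8.26 FPKM), JAG1 (7.41 FPKM), WNT7B (4.05 FPKM) and the hedgehog ligand SHH (3.53 FPKM) were detected, whereas NRG1, WNT7A, WNT11 and SFRP1 had 0 counts. From the table's own annotation of growth factors, KITLG, the ligand of the receptor KIT, was added at 66.1 FPKM after its value was seen.

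Chemokines and cytokines were detected in 17 of 30 cases (56.7%, under the 65.4% of all genes), and MIF (158 FPKM) alone passed 100 FPKM. The membrane-bound chemokine CX3CL1 was at 24.2 FPKM, the interferon-induced CXCL10 at 12.3 FPKM, LIF at 11.9 FPKM, the neutrophil attractant CXCL8 at 7.02 FPKM, CXCL16 at 6.58 FPKM and CCL5 at 6.30 FPKM. CXCL1 was at 2.82 FPKM, but its close relatives CXCL3 and CXCL2 were at 0.256 and 0.107 FPKM. IL1A (15 counts), IL1B (6 counts) and IL6 (0 counts, up to 0.0187 FPKM) were not detected. CCL22, outside the list and chosen after its value was seen, was at 23.2 FPKM.

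The matrix list held 46 genes, of which 33 were detected (71.7%, against 65.4% of all genes). Basement membrane laminins were detected for all of LAMA3 (15.6 FPKM), LAMA5 (32.0 FPKM), LAMB1 (37.2 FPKM), LAMB2 (9.54 FPKM), LAMB3 (36.7 FPKM) and LAMC1 (27.5 FPKM), with the proteoglycans AGRN at 65.6 FPKM and HSPG2 at 27.8 FPKM. The basement membrane collagens COL4A1 and COL4A2 were at 0.00878 and 0.163 FPKM. The membrane protease ST14 (85.2 FPKM) and its inhibitors SPINT2 (109 FPKM) and SPINT1 (36.5 FPKM) were high. Of the metalloproteases MMP7 was at 39.1 FPKM, MMP14 at 2.23 FPKM, MMP1 at 0.548 FPKM and MMP9 at 0.0208 FPKM. The inhibitor TIMP1 was at 56.6 FPKM, TIMP2 at 22.7 FPKM and TIMP3 had 0 counts.

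**Figure D4:**
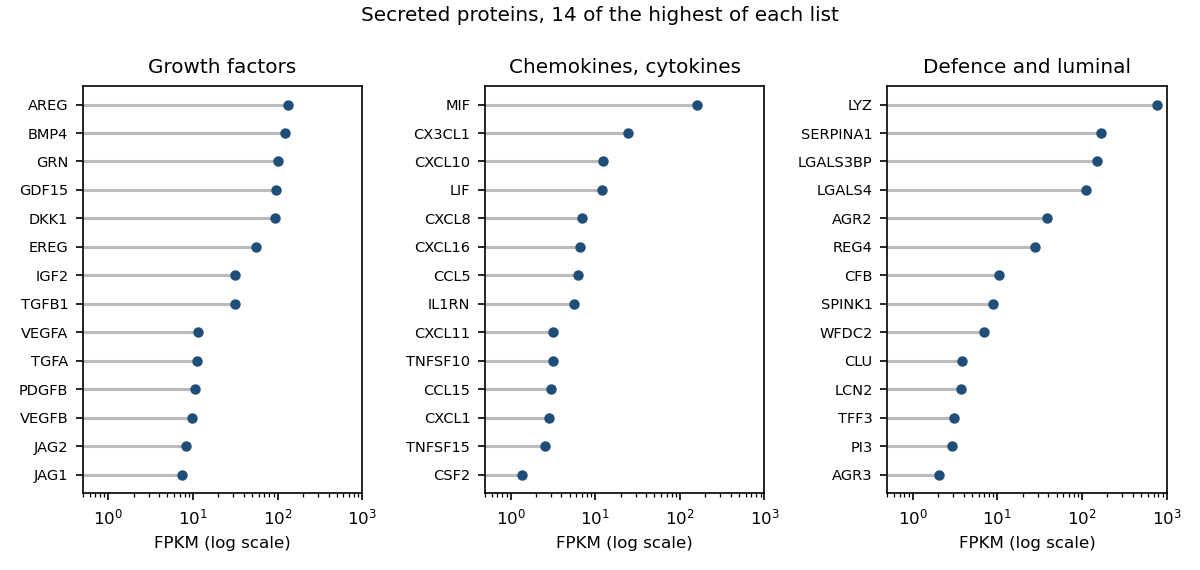
FPKM (log scale) of 14 of the highest growth factors, chemokines and cytokines, and defence and luminal proteins in the NC library, 1 point per gene. AREG, BMP4 and GRN lie above 100 FPKM in the first panel, MIF alone does in the second, and LYZ at 771 FPKM leads the third.

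Receptor tyrosine kinases were detected in 26 of 46 cases (56.5%, under the background of 65.4%), and MET, the receptor of hepatocyte growth factor, was highest at 67.8 FPKM (67.1 to 68.5). EPHB4 (47.9 FPKM), FGFR4 (25.1 FPKM), which binds FGF19, EPHA2 (23.8 FPKM), ERBB3 (18.7 FPKM) and MST1R (18.1 FPKM) followed. EGFR stood at 6.44 FPKM and ERBB2 at 6.59 FPKM, whose counting intervals (6.28 to 6.60 and 6.42 to 6.77) overlap, and ERBB4 had 8 counts. MET exceeded EGFR 10.5-fold on the deposited scale and 5.04-fold on coding transcript lengths. Of the FGF receptors FGFR3 was at 6.27 FPKM, FGFR2 at 4.07 FPKM and FGFR1 at 0.0949 FPKM. AXL was at 0.176 FPKM, and RET, ALK and CSF1R had 0 counts.

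G protein-coupled receptors were detected in 23 of the 58 listed genes in the table (39.7%) and in 63 of the 303 that the table annotates with this activity (20.8%), both under the background of 65.4%. The high ones were GPRC5A at 53.5 FPKM, the neurotensin receptor NTSR1 at 53.1 FPKM, whose counting interval (52.3 to 53.9) overlaps that of GPRC5A (52.9 to 54.1), the fatty acid receptor FFAR4 and the adhesion receptor ADGRG1, both at 36.9 FPKM, and the protease-activated receptor F2RL1 at 31.8 FPKM. GPR35 was at 15.5 FPKM. The somatostatin receptor SSTR5 was at 4.39 FPKM and the secretory receptor VIPR1 at 4.10 FPKM. By the table's annotation the succinate receptor SUCNR1, chosen after its value was seen, was at 30.4 FPKM. PTGER2, CXCR2 and BDKRB2 had 0 counts.

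Receptors of cytokines and death ligands were detected in 33 of 55 cases (60.0%, near the 65.4% of all genes), led by TNFRSF21 at 108 FPKM and TNFRSF12A, the receptor of TWEAK, at 62.8 FPKM. IL13RA1 (22.2 FPKM), TNFRSF1A (19.9 FPKM), LTBR (17.5 FPKM), IL17RB (15.9 FPKM), the TRAIL receptor TNFRSF10B (15.6 FPKM), TGFBR2 (12.1 FPKM) and IL6ST (11.03 FPKM) were above 10 FPKM. The partners LIFR and OSMR had 4 and 5 counts, although IL6ST was detected. TLR4 (1.32 FPKM) was the only detected member among TLR1, TLR3, TLR4, TLR5, TLR6 and TLR9. In the Wnt pathway the ligase RNF43, which removes Wnt receptors, was at 56.0 FPKM, its paralogue ZNRF3 at 19.4 FPKM, the co-receptors LRP5 and LRP6 at 41.0 and 10.5 FPKM and LGR4 at 15.4 FPKM. NOTCH1 (10.4 FPKM) and NOTCH2 (6.42 FPKM) were detected, NOTCH3 (0.194 FPKM) and NOTCH4 (0.110 FPKM) were not.

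Integrins were detected in 13 of 22 cases (59.1%, near the background of 65.4%). The laminin receptor chains ITGB4 (92.7 FPKM) and ITGA6 (54.1 FPKM), ITGB1 (62.1 FPKM), the collagen receptor ITGA2 (44.0 FPKM), ITGB5 (36.5 FPKM), ITGA3 (27.7 FPKM), ITGB6 (19.0 FPKM) and ITGAV (16.9 FPKM) formed the upper group. The fibronectin receptor chain ITGA5 was at 0.805 FPKM, and ITGB3 had 0 counts.

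**Figure D5:**
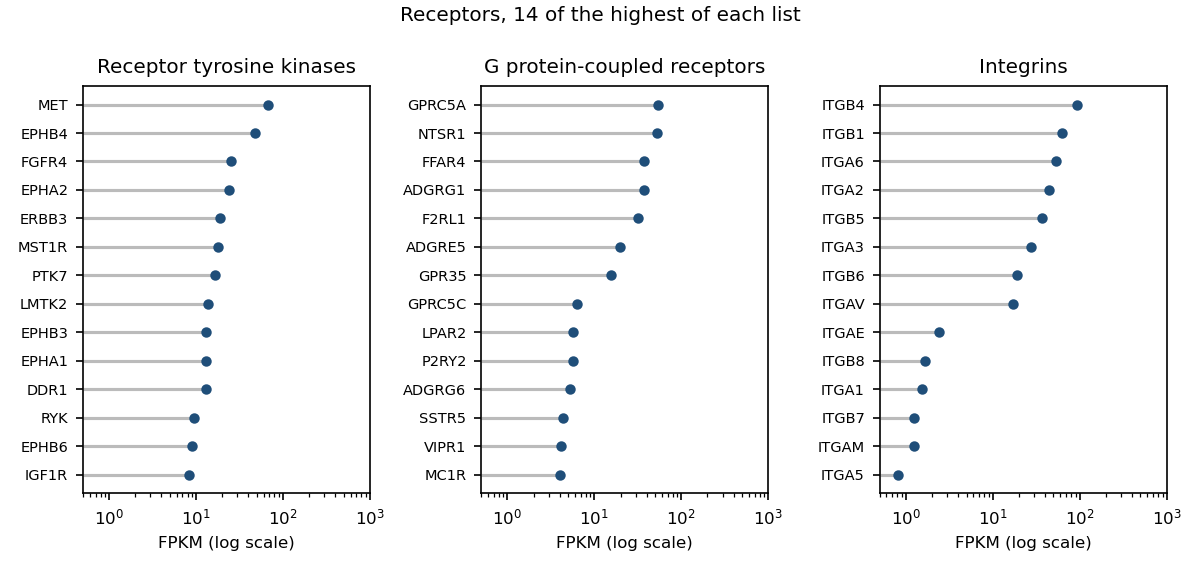
FPKM (log scale) of 14 of the highest receptor tyrosine kinases, G protein-coupled receptors and integrins in the NC library, 1 point per gene. MET (67.8 FPKM) leads the first panel, GPRC5A and NTSR1 are level at the top of the second, and in the third a step separates ITGAV at 16.9 FPKM from ITGAE at 2.42 FPKM.

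Cell junction genes were detected in 40 of 47 cases (85.1%, against 65.4% of all genes), with a median of 9.70 FPKM. CLDN2, which forms channels for cations and water in leaky tight junctions, stood at 368 FPKM (366 to 370), 5.15-fold above CLDN7 (71.5 FPKM; 3.30-fold on coding transcript lengths) and 60.4-fold above CLDN1 (6.09 FPKM). CLDN3 was at 29.8 FPKM, and 8 of 17 claudins in the table were detected (47.1%, under the background of 65.4%). The surface antigens CD24 (113 FPKM) and CD44 (60.8 FPKM), the desmosomal JUP (62.8 FPKM) and DSP (31.2 FPKM) and the vesicle protein RAB25 (40.4 FPKM) were high, while the cadherin CDH1 was at 6.54 FPKM and CDH3 at 18.2 FPKM. Keratins were detected in 8 of 24 cases (33.3%, under the background of 65.4%), with KRT80 (12.5 FPKM) and KRT17 (12.3 FPKM) after KRT20. Whether KRT18 or KRT8 is the higher of their pair depends on the length used: KRT18 was 1.37-fold above KRT8 on the deposited scale and 0.739-fold of it on coding transcript lengths. Of 25 brush border genes 17 were detected (68.0%, near the background), among them the linker SLC9A3R1 (75.2 FPKM), EZR (47.5 FPKM), MISP (35.4 FPKM) and the peptidase DPP4 (18.4 FPKM), whereas MYO1A (0.0481 FPKM) and MYO7B (0.0191 FPKM), motors of the mature enterocyte brush border, were not.

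Ion and bile transporters were detected in 27 of 48 cases (56.25%, under the background of 65.4%), and 18 of the detected ones overlap no gene on the same strand. The sodium pump chain ATP1B1 stood at 276 FPKM, the chloride importer SLC12A2 at 74.2 FPKM and SLC4A2 at 46.2 FPKM. ABCC3, an exporter of organic anions at the blood side of cells, was at 41.2 FPKM, and ABCC2, its counterpart at the bile side, at 0.846 FPKM, a ratio of 48.7 (181 on coding transcript lengths). SLCO4A1 was at 36.1 FPKM, the water channels AQP5 and AQP3 at 26.5 and 12.1 FPKM, the potassium channel KCNK5 at 22.0 FPKM and the sodium channel chain SCNN1A at 20.2 FPKM, while its partner SCNN1G had 0 counts. The exporters ABCB1, ABCB11 and ABCG8 and the bile acid transporter chain SLC51B had 0 counts, although ABCC1 (12.9 FPKM), ABCC4 (5.04 FPKM) and ABCG2 (2.72 FPKM) were detected.

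Nutrient transporters were detected in 45 of 60 cases, more than the 65.4% of all genes, with 6 above 100 FPKM. These were the mitochondrial nucleotide carriers SLC25A5 (310 FPKM) and SLC25A6 (129 FPKM), the glutamine importer SLC1A5 (160 FPKM), the transferrin receptor TFRC (121 FPKM), the glucose importer SLC2A1 (119 FPKM) and the leucine importer chain SLC7A5 (107 FPKM), whose partner SLC3A2 was at 67.8 FPKM. The cystine importer SLC7A11 was at 28.0 FPKM and the lactate carriers SLC16A1 and SLC16A3 at 29.04 and 12.1 FPKM. SLC2A1 exceeded SLC2A2, the glucose carrier of hepatocytes, 19.2-fold (6.21 FPKM; 56.6-fold on coding transcript lengths), and SLC2A3 had 37 counts. The intestinal carriers SLC6A19 (0 counts), SLC2A5 (6 counts) and SLC7A9 (13 counts) were not detected, but the glucose carrier SLC5A1 was at 5.10 FPKM.

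Of 48 tumour suppressors and oncogenes altered in bile duct cancer 46 were detected (95.8%, against 65.4% of all protein-coding genes). Of these 46, 30 have no overlap on the same strand. The undetected genes were ARID1B (0.944 FPKM) and the telomerase gene TERT (0.346 FPKM). BCL2L1 (87.4 FPKM), MET, MCL1 (60.1 FPKM), RNF43, CDK4 (54.2 FPKM), IDH1 (50.3 FPKM), MYC and IDH2 (38.6 FPKM) were highest. CDKN2A was at 11.9 FPKM and CDKN2B at 5.03 FPKM. SMAD4, near the bottom, was at 1.08 FPKM (1.01 to 1.14). A level says nothing of whether a gene is mutated.

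Several gene families with known tissue restriction had a smaller share of detected members than the 65.4% of all protein-coding genes. Of 54 olfactory receptors 1 was detected (1.85%, OR2A7 at 1.12 FPKM). In this family 19 genes had 0 counts, as had 7.3% of all protein-coding genes. None of 19 taste receptors, none of 17 MAGE and GAGE genes and none of the 8 hormone genes in the table (23 listed) was detected, and the highest of these hormones was GAST at 0.576 FPKM. Of 39 cytochrome P450 genes 9 were detected (23.1%) and 7 had 0 counts. The highest was CYP51A1 of cholesterol synthesis (43.9 FPKM), then CYP2S1 (15.4 FPKM) and CYP3A5 (11.4 FPKM), while CYP3A4 had 10 counts. Of 129 genes annotated as ion channels 18 were detected (13.95%, under the 65.4% of all protein-coding genes), and ITPR3 alone passed 10 FPKM, at 55.3 FPKM. Among germline genes POU5F1 (1.46 FPKM) and SALL4 (1.16 FPKM) were just above the threshold.

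The length used and overlapping genes limit some of these values. Deposited FPKM divides by all exons of a gene, so genes with long or many isoforms are set low. With the median coding transcript as the length, CD44 would stand at 457, SPINT2 at 407, SLC2A1 at 373 and GGT1 at 26.7 on the same scale. On that length 8 of the genes named above as under 1 FPKM would pass it, with values of 1.41 for HNF4G, 1.65 for VIM, 1.29 for COL1A1, 1.53 for TFAP2A, 1.21 for HOXA2, 1.35 for ITGA5, 1.17 for ABCC2 and 6.27 for ARID1B. Of the detected genes 26.1% overlap another gene of the table on the same strand, and whether strand was used in counting was not stated. Partners on the opposite strand with more counts than the gene named included TSPAN8 at LGR5, HNRNPUL1 at TGFB1, ZEB1-AS1 at ZEB1, MPDU1 at SOX15, SLC39A7 at RXRB, TRMT112 at ESRRA, NUDC at NR0B2, LETM2 at FGFR1, HOXB-AS3 at HOXB4, ARHGEF35-AS1 at OR2A7, CSNK1D at SLC16A3 and RICTOR at OSMR. KRT8 and KRT18, SCNN1A and LTBR, and COL4A1 and COL4A2 overlap each other on opposite strands. On the same strand, partners with more counts than the gene named included HOXB3 at HOXB4, HOXB9 at HOXB7, HOXB7 at HOXB8, HOXC6 at HOXC4, MUC20-OT1 at MUC20 and GPR108 at C3. The partner of CD68 known only by a clone name also had more counts, on either strand.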

How the data were processed

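RNA sequencing was done on 3 libraries, of which only the NC library was used. Total RNA was extracted with Trizol, per the labels' protocols. The submitters' processing notes name cutadapt 1.9 and FastQC, and the build GRCm38, a mouse assembly, whereas the gene identifiers are human and 97.3% of them are in GENCODE 29 (GRCh38). No aligner, counter or strand setting is stated for these libraries. The authors deposited, per the file headers, 1 count column and 1 FPKM column per library; the counts are whole numbers and were used unchanged. For 10624 genes with at least 500 counts, count divided by FPKM matched the union of a gene's exons in GENCODE 29 up to a factor with a median of 1.20 (1.198 to 1.206 between the quartiles). Deposited FPKM therefore runs low for genes with long rare isoforms.

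A gene was called protein-coding by GENCODE 29 or, where its identifier had no match, by the table. Every gene in the table has counts in at least 1 of the 3 libraries; list members with no row were not analysed here and are left out of the shares. Thresholds were 1, 10 and 100 FPKM. For 0 counts, the limit is 3 counts. Named genes are the 30 highest, the 5 markers, and in each list up to 8 of the highest plus defining members under the threshold; others are named to complete a family, chosen with their values known. The members and lists were chosen with earlier results of these data known. The code for intervals and ranks was tested on counts simulated with Poisson error. That checks the code only and not other sources of error in this library. Python 3.11.15, pandas 2.3.3, numpy 2.4.6 and scipy 1.17.1 were used. Some genes of the lists are counted but not reported here by name.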

Additional observations from a re-analysis of the deposited data

How the results depend on the processing

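The number of detected genes lay between 7769 (genes overlapping another on the same strand left out) and 13888 (at least 10 counts in place of 1 FPKM), against 10512, and genes with at most 3 counts numbered 1432, against 1174 at 0 counts. The share held by the 50 highest genes was 14.9% and became 52.1% with mitochondrially encoded genes included and 9.39% with counts scaled to library size alone (CPM) in place of FPKM. With a threshold of 0.5 FPKM, 4 squamous markers, 2 lung markers, 4 mesenchymal markers, 1 hormone gene, 2 olfactory receptors, 2 taste receptors and 13 protocadherins were detected. With 2 FPKM, 1 pancreatic and 1 immune marker, 4 protocadherins and 11 ion channels, and 0 urogenital or breast markers, germline genes and olfactory receptors, were detected. With a TPM (length-scaled values brought to a common sum) of at least 1, the counts were 4 squamous, 2 lung, 3 urogenital or breast and 4 mesenchymal markers, 1 hormone gene, 15 cytochromes P450, 2 olfactory receptors, 4 taste receptors, 19 protocadherins, 1 MAGE or GAGE gene, 95 annotated G protein-coupled receptors and 34 ion channels. Without genes that overlap another on the same strand, 1 neural marker, 1 germline gene, 30 bile duct cancer genes, 7 HOX genes, 0 olfactory receptors, 5 protocadherins and 10 ion channels were detected. The other counts of list, family and annotation set members stayed within 1.5 times under these 4 alternatives. With CPM, 28 of 34 ranks compared moved by over 1.5 times, among them GPX2 from 28 to 119, KRT20 from 661 to 2232 and MUC5AC from 5712 to 1675. Under the coding transcript length, an alternative chosen after seeing the data, 23 of 34 did, among them KRT20 to 1521 and VIL1 from 1445 to 800. Counting error is large only for genes of few counts, and 1 library leaves the spread between cultures unknown. No paired analysis was possible because a single library was described and no test was made.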

Other observations

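Among surface genes of immune recognition, the class I genes named here were detected and the class II genes named here were not. Of 31 such genes with a row, 22 had an FPKM of at least 1 (71.0%, against 65.4% of all protein-coding genes). HLA-C was at 81.0 FPKM, HLA-B at 32.3 FPKM and B2M, their shared light chain, at 78.3 FPKM (470 with the length of its median coding transcript). HLA-B and HLA-C overlap in the table, and on coding transcript lengths they stood at 148 and 132. The class II chain HLA-DRA and its partner CD74 had 4 counts each, and their activator CIITA was at 0.171 FPKM. The checkpoint ligand CD274 was at 0.203 FPKM and PDCD1LG2 had 0 counts, whereas CD276 was at 23.1 FPKM, the poliovirus receptor PVR at 28.8 FPKM and NECTIN2 at 40.1 FPKM. The complement shields CD59, CD55 and CD46 were at 39.7, 33.3 and 28.6 FPKM.

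Of 59 enzymes of biotransformation and redox defence 35 had an FPKM of at least 1 (59.3%, under the 65.4% of all protein-coding genes). After GPX2 came the transferase GSTP1 (204 FPKM), the reductases AKR1B10 (196 FPKM) and NQO1 (117 FPKM) and the glucuronidating enzyme UGT1A6 (84.3 FPKM), whose family shares exons. GPX2 was 7.59-fold above GPX1 and 8.07-fold above GPX4; on coding transcript lengths the ratios were 9.42 and 5.00. Of 14 S100 genes with a row, 10 were detected (71.4%, against 65.4% of all protein-coding genes). Of them 4 passed 100 FPKM, S100A6, S100A10, S100A11 (306 FPKM) and S100P (181 FPKM). Of 50 protocadherin genes 8 were detected (16.0%, under the 65.4% of all protein-coding genes), with PCDH1 at 15.2 FPKM and the next, PCDHB2, at 5.04 FPKM.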
